A study of Homo sapiens with 6 samples.

Results

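Mitochondria make few proteins of their own, so most of their proteins are made in the cytosol and imported. The TOM complex of the outer membrane recognises them and lets them through. From there the TIM23 translocase of the inner membrane passes on proteins with a cleavable presequence, while small chaperones of the intermembrane space hand carrier proteins to the TIM22 translocase. In the matrix, chaperones pull in and fold the arriving chain, a peptidase removes the presequence, and proteases of the matrix and inner membrane degrade what is damaged or surplus.

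The genes described here encode this machinery. They were chosen by symbol: every gene whose name starts with TIMM or TOMM followed by a digit, and 19 named chaperones, peptidases, proteases and prohibitins. This gave 43 of the 26255 genes in the deposited tables. Of these, 42 had a mean of at least 1 FPKM over the 6 libraries, the minimum for testing. FPKM are fragments per kilobase of transcript, scaled for sequencing depth in a way that is not given. TOMM20L, the remaining gene, read 0.218, 0 and 0.224 FPKM in replicates 1 to 3 of the ZsGreen-negative group and was listed at 0 in all 3 ZsGreen-positive libraries. As genes of the mitochondrial import and quality-control machinery the set fits its description apart from TOMM34, whose product is a co-chaperone of the cytosol.

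Poly(A) RNA was sequenced from HCT116, a long-established cell line of human colorectal carcinoma, with 3 samples labelled negative and 3 labelled positive for the green fluorescent protein ZsGreen. The title of the series names cells transduced with the degron of ornithine decarboxylase and models of cancer stem cells. This degron leads a fused protein to the proteasome without ubiquitin. No drug, time or dose is named for either group, and nothing in the labels says whether the samples were separate cultures, so the p-values reflect the spread among these 6 libraries alone, and that spread may be technical. Each mean below is followed by its SD over n = 3 libraries per group. Each log2 fold change is positive minus negative on the scale of log2(FPKM + 1), with its SE, and understates the change of low genes. Adjusted p-values are from limma with the Benjamini-Hochberg adjustment over all 12213 genes tested, at a threshold of 0.05.

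The libraries differed between groups in more than these genes. Depth estimated from the lowest FPKM values was 9380000 to 9650000 fragments in the ZsGreen-negative libraries and 12000000 in ZsGreen-positive replicate 1. This estimate assumes FPKM scaled to each library's own total, and the scaling is not given. ZsGreen-positive replicates 2 and 3 stood apart: they had few genes at low values (103 and 59 of 2137 genes with 1 transcript, against 273 to 387 in the other 4 libraries), so that their depth was not estimated. Genes listed at 0 numbered 8985 to 9162 in the negative and 10314 to 11989 in the positive libraries, and the 10 most abundant genes took 56.9% to 57.4% and 45.6% to 47.5% of the summed FPKM. The median SD of a tested gene on the log2 scale was 0.0683 among negative and 0.191 among positive libraries, so the precision is set mostly by the positive group. Of 8 markers of colorectal epithelium 6 reached 1 FPKM in every library, with a summed level of 4243 to 4309.5 FPKM in the negative and 3146 to 3578 in the positive group. CDX1 was at 0 in all libraries and VIL1 below 1 FPKM. Among 13 markers of fibroblasts, immune cells and endothelium only COL1A1 reached 1 FPKM in any library, and COL1A2, DCN, LUM, CD3E and MS4A1 were at 0 in all 6. The summed fibroblast markers were 2.33 to 2.48 FPKM in the negative and 0.675 to 1.19 in the positive libraries, the immune markers 0.0206 to 0.191 and 0, and the endothelial markers 0.0578 to 0.126 and 0.0638 to 0.171. The part of these differences in the results below was not tested.

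Transcripts of the import and proteostasis machinery were more often higher than lower in the ZsGreen-positive libraries. Of 42 tested members 24 rose (57.1%), 5 fell (11.9%) and 13 did not pass. Among all tested genes 59.4% were called, 29.4% higher and 30.0% lower. The median log2 fold change was 0.50 for the members and 0.00 for all tested genes. In 24 members every positive library lay above every negative one, against 33.2% of all tested genes, and in 9 the order was the opposite, against 34.5%, so that 67.6% of all tested genes had groups that did not overlap. At least 2-fold rises that passed were found for 9 members (9.48% of all tested genes): TOMM40, TOMM40L, TIMM13, TIMM8A, TIMM10, TRAP1, HSPE1, PMPCB and CLPP. This is a count of log2 fold changes of at least 1, and it was 11 with a pseudocount of 0.1 and 5 with one of 5. By the ratio of mean FPKM, PHB (2.01) and TIMM21 (2.12) were also past 2-fold. With all 6 libraries and values as deposited 0 members fell as far, where 8.34% of all tested genes did. Bulk RNA does not tell more RNA per cell from more cells with a given level.

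The counts moved with the libraries and with some of the scalings. Median-of-ratios scaling, which divides each library by its median ratio to the genes' geometric means, left them at 24 higher and 5 lower. Among all tested genes 29.5% were then higher and 30.0% lower. When ZsGreen-positive replicate 1 alone stood for its group, 28 members rose and 7 fell (36.1% and 36.1% of all tested genes), that library being assumed to vary as the negative ones do. By limma, 4 further members then passed as higher, CLPX (0.39, adjusted p = 0.00638), TIMM8B (0.64, adjusted p = 0.00171), TOMM7 (0.26, adjusted p = 0.0110) and TIMM17A (0.19, adjusted p = 0.0375), and 2 as lower, TIMM10B (-0.26, adjusted p = 0.0330) and TIMM23 (-0.14, adjusted p = 0.0313). After rescaling the FPKM of each library to a common sum of 1000000, called rescaling below, the median of all genes shifted to 0.14. Then 27 members rose and 1 fell (35.1% and 21.4% of all tested genes), and HSPA9, YME1L1, OMA1 and TIMM23B no longer passed. With quantile normalisation 21 rose and 8 fell (26.7% and 33.0%), and the median log2 fold change was 0.24 for the members and -0.06 for all genes. Without positive replicate 1 the members' median was 0.37.

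**Figure D1:**
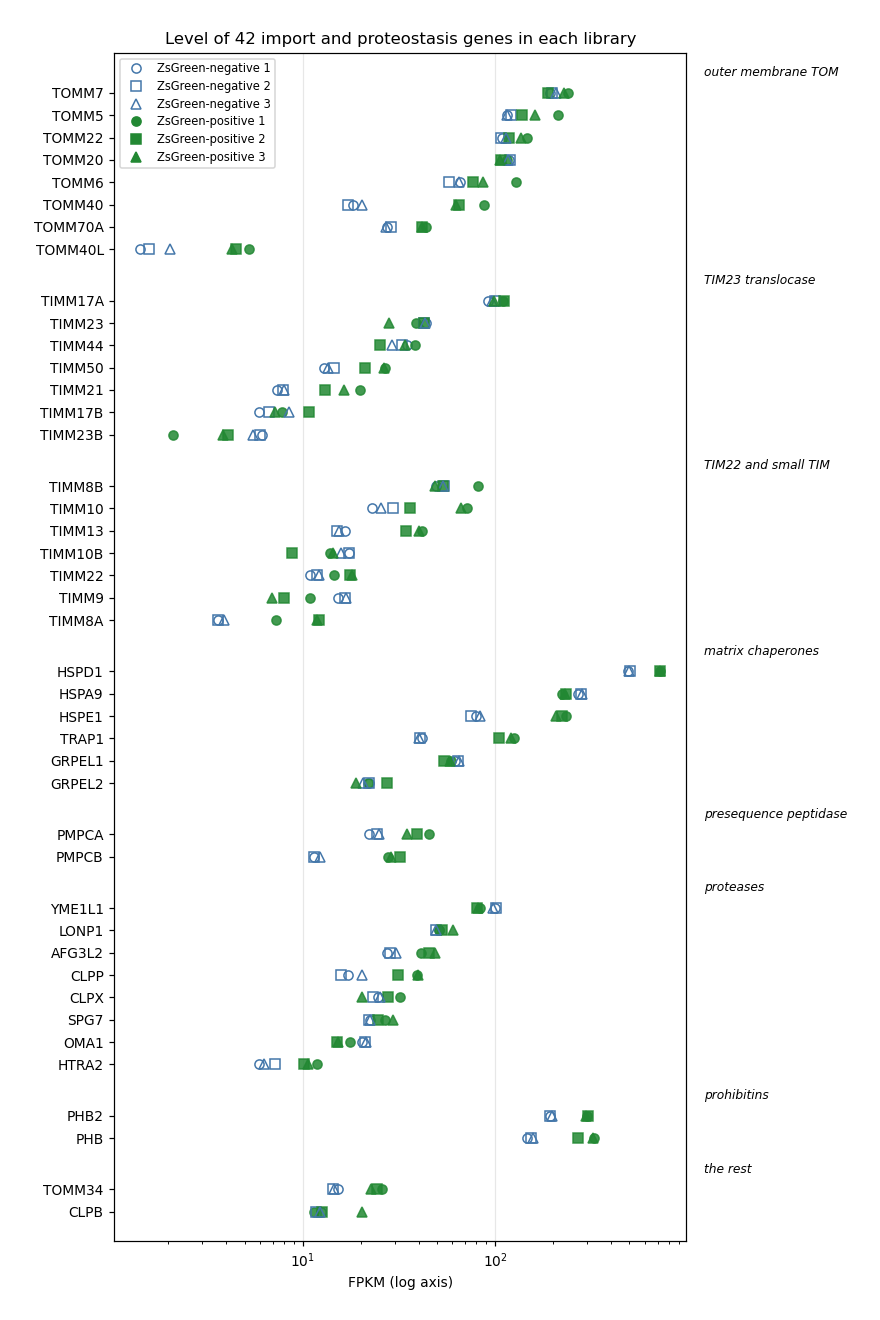
Each row is 1 gene, ordered by mean level within its role, and the log axis gives its FPKM in each library (open blue symbols, ZsGreen-negative; filled green symbols, ZsGreen-positive; the symbol shape gives the replicate). HSPD1 is the most abundant member in both groups, and the green symbols of TOMM40, HSPE1, TRAP1 and PMPCB lie clear to the right of the blue ones.

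The order of the levels was largely shared by the groups (Spearman's rho of the 43 mean FPKM values 0.921, across genes, which are not independent replicates). HSPD1 led with 496 ± 6.43 FPKM in the negative and 721 ± 2.70 in the positive group. HSPA9 was next in the negative libraries at 278 ± 6.76 FPKM, followed by TOMM7 at 199.8 ± 7.27 and PHB2 at 194 ± 2.85, which did not differ beyond their spread. In the positive libraries PHB (307 ± 32.2 FPKM) and PHB2 (301 ± 2.91), again not separated by their spread, came after HSPD1, ahead of HSPA9 (229.6 ± 4.98) and HSPE1 (221 ± 12.7). TRAP1 moved from rank 17 to rank 9, TOMM40 from 27 to 14 and HSPE1 from 11 to 5. Summed over all members the level was 2622, 2664 and 2701 FPKM in negative replicates 1 to 3 and 3889.7, 3469.9 and 3641 FPKM in positive replicates 1 to 3.

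Of the 8 tested genes of the TOM complex, 6 rose, 0 fell and 2 did not pass, where 29.4% of all tested genes rose and 30.0% fell. The count that rose was 3 without negative replicate 1 or 3, where 24.5% and 24.4% of all tested genes rose. It was 7 without positive replicate 2, where 30.9% did. TOMM40, the protein-conducting channel, had the largest log2 fold change of all members. It stood at 18.3, 17.1 and 20.2 FPKM in negative replicates 1 to 3 and at 87.7, 65.2 and 62.3 FPKM in positive replicates 1 to 3. Every positive library was more than 3 times the highest negative one, with replicate 1 the highest (log2 fold change 1.88 ± 0.14, adjusted p = 2.63e-05). TOMM40L, a close relative of the channel, was far less abundant at 1.69 ± 0.318 against 4.68 ± 0.522 FPKM, and it rose as well (1.08 ± 0.15, adjusted p = 0.000558). The ratio of TOMM40 to TOMM40L was 12.8, 10.8 and 9.90 in the negative and 16.6, 14.6 and 14.5 in the positive libraries, so the main channel gene gained on its relative in each of them.

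The receptors of the complex behaved unequally. TOMM70A, which binds carrier precursors and their cytosolic chaperones, was at 27.4, 28.6 and 27.2 FPKM in the negative and at 43.7, 41.8 and 41.9 FPKM in the positive libraries. The groups were well apart and tight (log2 fold change 0.60 ± 0.06, adjusted p = 0.000134). TOMM20, the main presequence receptor, was at 118, 119 and 117 against 116, 107 and 106 FPKM. Its positive libraries all lay just below the negative ones, but the difference did not pass (-0.11 ± 0.06, adjusted p = 0.142), except without positive replicate 1 (-0.15, adjusted p = 0.0226) or with quantile normalisation (-0.29, adjusted p = 0.00134), and its sign turned to 0.07 after rescaling. The ratio of TOMM70A to TOMM20 was 0.233, 0.241 and 0.232 in the negative and 0.378, 0.389 and 0.397 in the positive libraries. TOMM22, the central receptor, rose slightly from 109.7 ± 3.38 to 133 ± 14.0 FPKM (0.27 ± 0.08, adjusted p = 0.0247). This call did not hold without negative replicate 1, 2 or 3 (adjusted p = 0.0779, 0.0846 and 0.0526) or without positive replicate 3 (adjusted p = 0.0620), nor with quantile normalisation (0.07, adjusted p = 0.358) or limma without its mean-variance trend (adjusted p = 0.0533).

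The small subunits TOMM5, TOMM6 and TOMM7 stabilise the complex. TOMM5 was at 115, 120.3 and 116 FPKM in the negative and at 212, 138 and 161 FPKM in the positive libraries, and TOMM6 at 65.9, 57.9 and 65.2 against 128, 77.1 and 86.4 FPKM. In both, positive replicate 1 was well above the other positive libraries. TOMM5 passed (0.51 ± 0.14, adjusted p = 0.0171) but not without negative replicate 1 or 3 (adjusted p = 0.0532 and 0.0507) or with quantile normalisation (0.27, adjusted p = 0.0664). TOMM6 passed (0.59 ± 0.18, adjusted p = 0.0234) but not without negative replicate 1, 2 or 3 (adjusted p = 0.0505, 0.0734 and 0.0522) or with no filter on low genes (adjusted p = 0.0527), and its value fell to 0.37 without positive replicate 1. From that library alone the values were 0.85 for TOMM5 and 1.02 for TOMM6. TOMM7 was at 193, 198 and 208 against 239, 188 and 228 FPKM, with overlapping groups (0.12 ± 0.09, adjusted p = 0.293). It passed as higher without positive replicate 2 (0.22, adjusted p = 0.0121) and after rescaling (0.30, adjusted p = 0.00441), and as lower with quantile normalisation (-0.20, adjusted p = 0.0403).

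**Figure D2:**
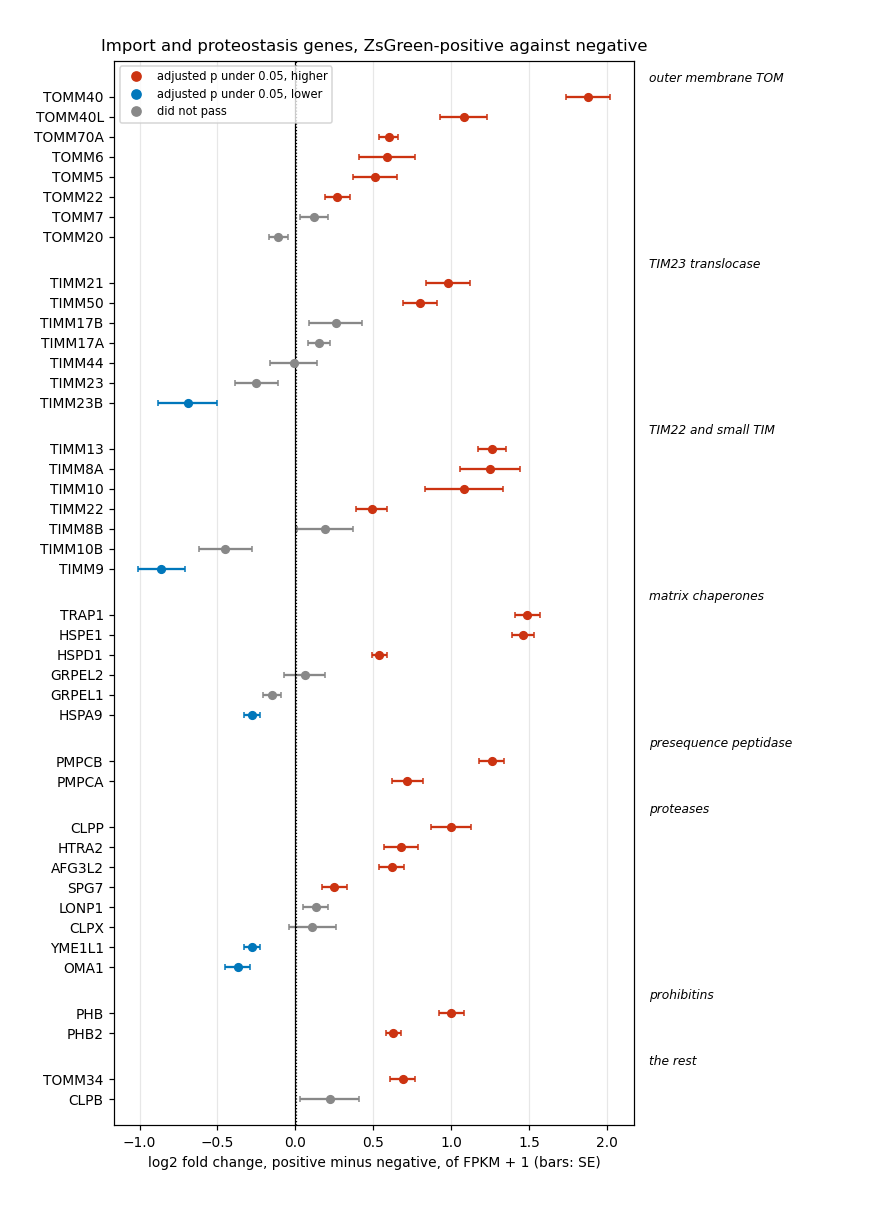
Log2 fold change of each tested member (points; bars, SE), grouped by role, with red for genes called higher, blue for genes called lower and grey for those that did not pass; the solid line marks 0 and the dotted line the median of all tested genes. Both subunits of the presequence peptidase and both prohibitins lie to the right. The TOM complex (by TOMM20 alone), both TIM groups, the matrix chaperones and the proteases hold genes on both sides.

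The TIM23 translocase showed no common direction. Of its 7 genes 2 rose (28.6%), 1 fell (14.3%) and 4 did not pass, against 29.4% higher and 30.0% lower among all tested genes. The share that rose was thus near that of all tested genes. The median log2 fold change of the 7 genes was 0.15. The genes that rose were a pair of subunits that face the intermembrane space. TIMM50, which receives presequences, was at 12.9, 14.5 and 13.6 FPKM in the negative and at 26.7, 21.0 and 26.3 FPKM in the positive libraries (0.80 ± 0.11, adjusted p = 0.000558). TIMM21, which links the translocase to the TOM complex and the respiratory chain, was at 7.38, 7.90 and 7.97 against 19.8, 13.1 and 16.4 FPKM (0.98 ± 0.14, adjusted p = 0.000864). Neither gene's groups overlapped, though positive replicate 2 was the lowest positive library for each.

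The channel genes differed in sign, and of these TIMM23B alone passed with all 6 libraries and values as deposited. TIMM23 was at 43.6, 42.6 and 43.0 FPKM in the negative and at 39.0, 42.6 and 28.2 FPKM in the positive libraries (-0.25 ± 0.14, adjusted p = 0.165). Positive replicate 3 was much the lowest, and without it the value was -0.08 (adjusted p = 0.311). TIMM23B, a nearly identical copy, fell from 5.87 ± 0.299 to 3.34 ± 1.06 FPKM (-0.69 ± 0.19, adjusted p = 0.0174), but reads of the copies can be split between them by the counting, so the value of each is uncertain. The TIMM23B call was lost without negative replicate 1 or 2 (adjusted p = 0.0616 and 0.0566) and after rescaling (-0.47, adjusted p = 0.0751), and from positive replicate 1 alone the value was -1.14. TIMM17A, the major form of the second channel subunit, was at 96.1 ± 4.10 against 107 ± 6.91 FPKM (0.15 ± 0.07, adjusted p = 0.104). It passed without positive replicate 3 (0.20, adjusted p = 0.0268) and after rescaling (0.32, adjusted p = 0.0195), and its sign turned to -0.01 with quantile normalisation. Its paralogue TIMM17B was at 7.0 ± 1.29 against 8.60 ± 1.91 FPKM (0.26 ± 0.17, adjusted p = 0.241). TIMM44, which tethers the import motor to the channel, was at 32.2 ± 3.04 against 32.4 ± 6.59 FPKM with overlapping groups (-0.01 ± 0.15, adjusted p = 0.972).

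Of the 7 members, chosen by symbol, that belong to the TIM22 translocase and its small chaperones, 4 rose (57.1%), 1 fell (14.3%) and 2 did not pass. Among all tested genes 29.4% rose and 30.0% fell. The partners TIMM9 and TIMM10 went in opposite directions. TIMM9 and TIMM10 form a mixed hexamer that carries hydrophobic precursors, and TIMM8A with TIMM13 forms a similar one. TIMM9 fell, from 15.3, 16.6 and 16.7 FPKM in the negative to 10.9, 8.01 and 6.92 FPKM in the positive libraries, with no overlap (-0.86 ± 0.15, adjusted p = 0.00204). From positive replicate 1 alone the value was -0.53. TIMM10 rose, from 22.9, 29.4 and 25.5 to 71.5, 36.0 and 66.5 FPKM, where positive replicate 2 was the closest to the negative group (1.08 ± 0.25, adjusted p = 0.00719). The ratio of TIMM9 to TIMM10 was 0.670, 0.566 and 0.654 in the negative and 0.153, 0.222 and 0.104 in the positive libraries, the widest change of the 15 ratios examined.

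TIMM13 rose from 15.7 ± 0.739 to 38.9 ± 3.89 FPKM (1.26 ± 0.09, adjusted p = 2.58e-05). TIMM8A was at 3.61, 3.62 and 3.89 FPKM in the negative and at 7.25, 12.1 and 11.9 FPKM in the positive libraries (1.25 ± 0.19, adjusted p = 0.000914). Here positive replicate 1 was the lowest of its group, and alone it gave 0.81. TIMM8B, its paralogue, was much more abundant at 49.0, 54.3 and 53.3 against 81.7, 53.7 and 48.8 FPKM. Its positive libraries straddled the negative ones, with replicate 1 far above (0.19 ± 0.18, adjusted p = 0.376). TIMM22, the channel for carrier proteins, rose from 11.6 ± 0.582 to 16.8 ± 1.94 FPKM (0.49 ± 0.10, adjusted p = 0.00450; 0.31 from positive replicate 1 alone). TIMM10B, which docks the small chaperones on that channel, was at 16.9 ± 0.904 against 12.4 ± 3.12 FPKM (-0.45 ± 0.17, adjusted p = 0.0598), and passed as lower without positive replicate 2 (-0.24, adjusted p = 0.0357) or 3 (-0.57, adjusted p = 0.0365).

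Of the 6 matrix chaperone genes 3 rose, 1 fell and 2 did not pass, where 29.4% of all tested genes rose and 30.0% fell. With quantile normalisation 2 rose and 2 fell, against 26.7% and 33.0% of all tested genes. HSPD1 and HSPE1 encode the chaperonin HSP60 and its lid HSP10, which enclose and fold imported proteins, and they are neighbours that point away from each other on chromosome 2. The stretch between their starts is shown because the genes are neighbours and it lies upstream of each. In the RefSeq annotation of GRCh38.p14 the outermost start of HSPD1 (minus strand, position 197500274) and the start of HSPE1 (plus strand, position 197500379) are 105 bases apart. Another RefSeq start of HSPD1 lies farther inside that gene. The 104 bases between them, chr2:197500275-197500378, have a GC content of 74.0% and read as follows on the plus strand, with the single match to the motifs searched in capitals.
HSPD1-HSPE1 intergenic: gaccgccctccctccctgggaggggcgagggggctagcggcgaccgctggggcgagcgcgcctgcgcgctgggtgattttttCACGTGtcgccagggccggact

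The capitals mark CACGTG, the core of the E-box, which starts 83 bases from the start of HSPD1 and ends 17 bases from that of HSPE1. Promoter windows (250 bases before to 50 after each RefSeq start) were found for 38 of the 43 members, giving 43 windows. No RefSeq window was matched for CLPP, GRPEL1, TIMM8B, TOMM5 and YME1L1. Each motif was searched on both strands. CACGTG was in 7 member windows (16.3%) against 9.42% of the 13165 windows of tested genes and 7.26% of all 35116 windows. These were windows of HSPA9, HSPD1, HSPE1, LONP1, TIMM10, TIMM8A and TOMM20, and the windows of HSPD1 and HSPE1 overlap and share the site. CCGGAAG, a core bound by ETS factors, was in 16 member windows (37.2%) against 17.4% of the windows of tested genes and 10.3% of all. TGCGCA was in 10 (23.3% against 12.4% and 8.24%), CCAAT in 13 (30.2% against 34.8% and 34.6%), TTCNNGAA in 6 (14.0% against 6.24% and 7.74%) and GAANNTTC in 1 (2.33% against 4.76% and 6.77%). TGATGNAAT, in 1 window (2.33% against 0.494% and 0.991%), was found in that of PMPCB. A match here is a run of letters, not a site of binding.

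HSPD1 was at 489, 501 and 499 FPKM in the negative and at 721, 719 and 724 FPKM in the positive libraries, with little spread (0.54 ± 0.05, adjusted p = 7.56e-05). With quantile normalisation it did not pass (0.10, adjusted p = 0.263). HSPE1 was at 79.8, 74.5 and 83.6 against 233, 222 and 207 FPKM (1.46 ± 0.07, adjusted p = 4.1e-06). The lid gene thus rose more than the chaperonin gene: the ratio of HSPD1 to HSPE1 was 6.12, 6.72 and 5.97 in the negative and 3.10, 3.24 and 3.49 in the positive libraries. A read-through transcript, HSPE1-MOB4, shares exons with HSPE1 and stood at 0.152 to 0.703 FPKM in the negative and 0 to 0.0864 FPKM in the positive libraries.

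TRAP1, the HSP90 of mitochondria, was at 41.9, 40.5 and 40.4 FPKM in the negative and at 126, 105 and 121 FPKM in the positive libraries. Its positive values were all more than 2-fold the negative ones (1.49 ± 0.08, adjusted p = 6.14e-06). HSPA9, the mitochondrial HSP70 that drives the import motor and is also called mortalin, went the other way, from 271, 279.9 and 284 to 224, 234 and 230.2 FPKM (-0.28 ± 0.05, adjusted p = 0.00251), though not past the threshold after rescaling (-0.10, adjusted p = 0.359). The ratio of HSPA9 to TRAP1 thereby went from 6.46, 6.91 and 7.04 to 1.78, 2.23 and 1.91. GRPEL1, the nucleotide exchange factor of HSPA9, was at 63.6 ± 1.55 against 57.3 ± 2.53 FPKM. Its groups did not overlap, but the difference did not pass (-0.15 ± 0.06, adjusted p = 0.0635). It passed without positive replicate 1 (-0.17, adjusted p = 0.0410), with quantile normalisation (-0.23, adjusted p = 0.00795) and with no filter on low genes (adjusted p = 0.0474), and its sign turned to 0.03 after rescaling. GRPEL2, the second exchange factor, was at 21.6 ± 0.897 against 22.7 ± 4.27 FPKM with overlapping groups (0.06 ± 0.13, adjusted p = 0.716).

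Both subunits of the presequence peptidase rose. PMPCB, the catalytic beta subunit, was at 11.4, 11.5 and 12.3 FPKM in the negative and at 27.6, 32.2 and 28.8 FPKM in the positive libraries (1.26 ± 0.08, adjusted p = 1.72e-05). PMPCA, the alpha subunit that binds the presequence, was at 22.2, 24.2 and 24.8 against 45.4, 39.3 and 34.9 FPKM (0.72 ± 0.10, adjusted p = 0.000784). The alpha transcript remained the more abundant, but its ratio to the beta transcript was 1.95, 2.1 and 2.01 in the negative and 1.64, 1.22 and 1.21 in the positive libraries.

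Among 8 protease genes 4 rose, 2 fell and 2 did not pass, where 29.4% of all tested genes were called higher and 30.0% lower. CLPP, the barrel of the matrix protease ClpXP, was at 17.2, 15.8 and 20.4 FPKM in the negative and at 39.3, 31.1 and 39.7 FPKM in the positive libraries (1.00 ± 0.13, adjusted p = 0.000428). CLPX, the unfoldase that feeds it, was at 24.6, 23.1 and 25.3 against 32.2, 27.8 and 20.3 FPKM. Its positive values lay on both sides of the negative ones (0.11 ± 0.15, adjusted p = 0.569), and it passed without positive replicate 3 (0.29, adjusted p = 0.0301) while its sign turned to -0.03 without positive replicate 1. The ratio of CLPP to CLPX was below 1 in every negative library (0.682 to 0.808) and above 1 in every positive one (1.12 to 1.95). LONP1, the other main protease of the matrix, was at 49.9 ± 1.06 against 54.7 ± 4.95 FPKM, with overlap (0.13 ± 0.08, adjusted p = 0.190), and passed after rescaling (0.30, adjusted p = 0.0399).

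AFG3L2 and SPG7 encode the subunits of the protease that faces the matrix from the inner membrane. AFG3L2 rose from 27.4, 28.4 and 30.7 to 41.2, 45.2 and 48.5 FPKM (0.62 ± 0.08, adjusted p = 0.000501). SPG7 rose by little, from 22.3 ± 0.155 to 26.8 ± 2.34 FPKM (0.25 ± 0.08, adjusted p = 0.0269), and not without negative replicate 1, 2 or 3 (adjusted p = 0.0813, 0.0919 and 0.0847). The proteases that face or act in the intermembrane space differed in direction. YME1L1 fell from 100.2, 101 and 97.4 to 83.6, 81.0 and 81.1 FPKM (-0.28 ± 0.05, adjusted p = 0.00259). OMA1, a stress-activated peptidase that cleaves the fusion protein OPA1, fell from 20.2, 21.0 and 21.3 to 17.5, 15.1 and 15.3 FPKM (-0.37 ± 0.08, adjusted p = 0.00626; -0.24 from positive replicate 1 alone). The groups of each were apart and its ratio in libraries of both kinds close, at 4.57 to 4.97 and 4.79 to 5.38 for YME1L1 over OMA1. HTRA2, a serine protease of the intermembrane space, rose from 5.89, 7.13 and 6.25 to 11.8, 10.1 and 10.7 FPKM (0.68 ± 0.11, adjusted p = 0.00117). The calls of YME1L1 and OMA1 were lost after rescaling (-0.10 and -0.19, adjusted p = 0.293 and 0.0809).

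Prohibitins form ring-shaped scaffolds in the inner membrane, built of PHB and PHB2 in turn. PHB was at 147, 154 and 157 FPKM in the negative and at 327, 269.7 and 324 FPKM in the positive libraries (1.00 ± 0.08, adjusted p = 5.5e-05). PHB2 was at 193, 192 and 197 against 301, 304 and 298 FPKM (0.63 ± 0.05, adjusted p = 3.27e-05). Both rose, and their ratio moved from 0.763, 0.802 and 0.798 to 1.08, 0.888 and 1.09, nearer to equal levels. TOMM34, the cytosolic co-chaperone, rose from 14.7 ± 0.457 to 24.3 ± 1.64 FPKM (0.69 ± 0.08, adjusted p = 0.000227). CLPB, which dissolves protein aggregates in the intermembrane space, was at 12.4, 11.7 and 12.3 against 11.4, 12.6 and 20.2 FPKM, so that its higher mean rested on positive replicate 3 (0.22 ± 0.19, adjusted p = 0.352; -0.02 without that library).

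**Figure D3:**
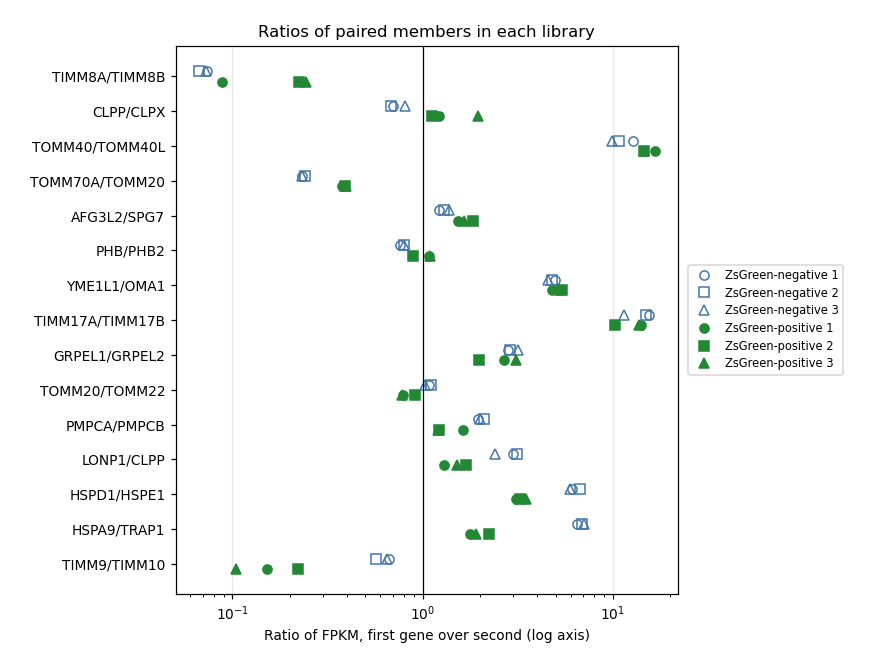
Ratio of FPKM between the members of 15 pairs in each library, on a log axis (open blue, ZsGreen-negative; filled green, ZsGreen-positive; shapes, replicates), ordered by the change in the log2 ratio. TIMM9/TIMM10 and HSPA9/TRAP1 shift farthest to the left, and the symbols of TIMM17A/TIMM17B, GRPEL1/GRPEL2 and YME1L1/OMA1 overlap between groups.

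Ratios within a library do not depend on a constant scaling factor for each library, apart from the pseudocount. Quantile normalisation is not such a factor, and the ratios were not computed under it. Of all tested genes taken singly, 67.6% had groups that did not overlap, and no such share was computed for ratios of other genes. In 12 of the 15 pairs the groups did not overlap. For each of these pairs the exact permutation test (two-sided) gave p = 0.1, the smallest that 3 against 3 libraries can give, and p = 0.125 adjusted over the 15 pairs. The change in log2 ratio was -1.94 for TIMM9/TIMM10, -1.77 for HSPA9/TRAP1, -0.93 for HSPD1/HSPE1 and 0.70 for TOMM70A/TOMM20. The change for TOMM40/TOMM40L depended on the pseudocount because TOMM40L is low: it was 0.80 with a pseudocount of 1, 0.50 with 0.1 and 1.16 with 5. TIMM8A/TIMM8B changed by 1.05 (0.62 with a pseudocount of 5), but its ratio was 0.0888 in positive replicate 1, near the negative 0.0667 to 0.0736, and 0.225 and 0.244 in replicates 2 and 3. The remaining pairs, with overlapping groups, were TIMM17A/TIMM17B (-0.11, p = 0.5 by the exact permutation test), GRPEL1/GRPEL2 (-0.21, p = 0.4 by the same exact test) and YME1L1/OMA1 (0.09, p = 0.3 by the same exact test).

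Other genes of import and quality control were taken from a list outside these members. All 41 of these were tested: 24 rose (58.5%, against 29.4% of all tested genes), 7 fell (17.1%, against 30.0%) and 10 did not pass, and the median log2 fold change was 0.43. The groups of the list differed. In presequence and peptide processing 3 of 7 rose and 2 fell, and in cytosolic delivery 2 of 8 rose and 2 fell. Co-chaperones and inner-membrane organisation each had 4 of 5 that rose. In the insertion and sorting group 9 of 12 rose and 2 fell. Those that rose included OXA1L, which inserts proteins into the inner membrane (30.3 ± 0.853 to 54.2 ± 4.48 FPKM). SAMM50, the core of the outer-membrane sorting machinery, rose as well (16.6 ± 1.56 to 27.4 ± 1.80 FPKM). DNAJC15, a J-protein of the import motor, fell from 13.7 ± 0.596 to 7.99 ± 1.35 FPKM (-0.72 ± 0.12, adjusted p = 0.00167). MIPEP, which trims some presequences after the first cut, was at 4.56, 4.19 and 4.15 FPKM in the negative and at 10.7, 16.5 and 14.1 FPKM in the positive libraries (1.46 ± 0.15, adjusted p = 0.000162). HSP90AB1, a cytosolic chaperone that delivers precursors to the receptor TOMM70A, rose from 408 ± 8.25 to 1067 ± 48.9 FPKM (1.38 ± 0.06, adjusted p = 2.54e-06). The cytosolic J-protein DNAJB6, a co-chaperone of HSP70, fell, at 99.1 ± 3.32 against 49.2 ± 3.34 FPKM (-1.0 ± 0.07, adjusted p = 2e-05).

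The transcription factors tied to the mitochondrial stress response did not share a direction. DDIT3, also called CHOP, was at 38.6, 40.5 and 39.9 FPKM in the negative and at 132, 153 and 201 FPKM in the positive libraries, which stood well apart (1.98 ± 0.14, adjusted p = 2.5e-05). ATF5 fell from 12.5, 11 and 10.8 to 6.06, 3.09 and 6.04 FPKM (-1.08 ± 0.22, adjusted p = 0.00396). ATF4, the factor that heads the integrated stress response, was at 490 ± 2.40 against 442 ± 34.2 FPKM (-0.15 ± 0.07, adjusted p = 0.0892), with positive replicate 1 at 481 close to the negative libraries, and it passed without that library (-0.21, adjusted p = 0.00512). CEBPB rose slightly, from 18.5 ± 2.93 to 25.6 ± 3.91 FPKM (0.45 ± 0.14, adjusted p = 0.0291), with overlapping groups. Its call was lost without negative replicate 2 or 3 (adjusted p = 0.0943 and 0.102) or positive replicate 1 or 3 (adjusted p = 0.0847 and 0.0714).

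**Figure D4:**
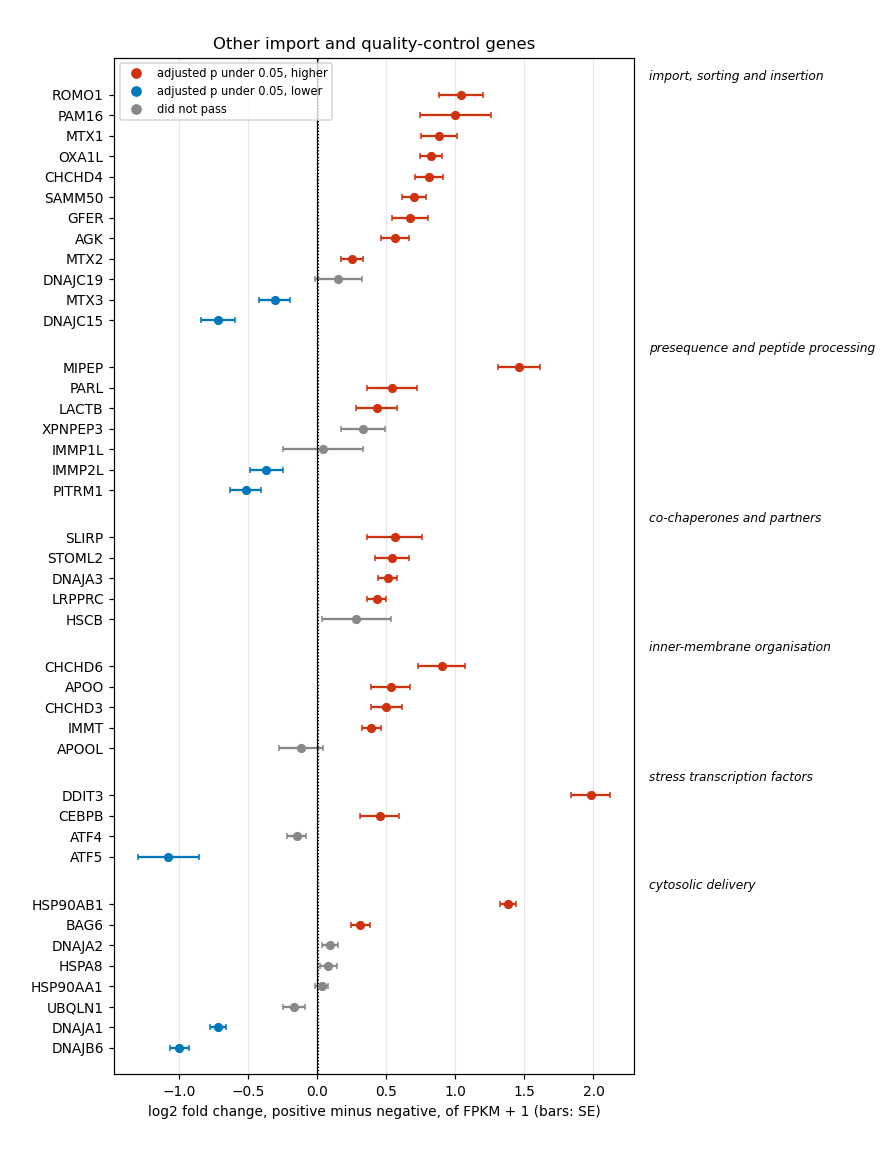
Log2 fold change of the 41 other import and quality-control genes (points; bars, SE), grouped by role and coloured as red for higher, blue for lower and grey for not passing; the solid line marks 0 and the dotted line the median of all tested genes. DDIT3 lies farthest to the right at 1.98 and ATF5 farthest to the left at -1.08.

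For comparison, 49 of 79 tested mitochondrial ribosomal protein genes rose and 1 fell, with a median log2 fold change of 0.44, and 8 of 9 genes of the cytosolic chaperonin CCT rose and 0 fell, with a median of 0.68. Among all tested genes 29.4% rose and 30.0% fell. The members described here had a median of 0.50, and whether the lists differ was not tested.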

How the data were processed

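RNA was taken up in TRIzol with the miRNeasy Micro kit and made into libraries with the TruSeq Stranded mRNA kit, per the labels' protocols. The authors deposited 1 table of FPKM values per library. The submitters' processing notes name Cuffdiff 2.2.1, TopHat2 2.1.1, SAMtools 0.1.18, Bowtie2 2.2.8 and build hg19. For settings, annotation, strand treatment and scaling, the status is: not given in the sources used here. A gene's FPKM depends on its length and on the library's total, so a few abundant RNAs can shift all values.

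Genes with a mean of at least 1 FPKM over the 6 libraries were tested on log2(FPKM + 1) by limma 3.58.1 under R 4.3.3 (two-sided; moderated by eBayes, trend on; 4 residual degrees of freedom). The code was first run on simulated data. Of genes changed there by a log2 fold change of -1 or 1, 76% and 70% were recovered, and 6.11% of the calls were false. Both groups had the same spread in that simulation, unlike these libraries, so it did not examine unequal spread. Ratios were tested by exact permutation of the libraries (Python 3.11.15). Depth was read from the lowest step in FPKM multiplied by length, over genes with 1 GENCODE 29 transcript of at least 1000 nt. It holds only if FPKM was scaled to each library's own total, and it limits the counting error only. Promoter windows came from RefSeq (GRCh38.p14); the deposited values carry no coordinates here. Members and lists were chosen with earlier results of these data known. All members are named, and of the other list the 3 largest rises and falls with ATF4, ATF5 and DDIT3; OXA1L, SAMM50 and CEBPB were named after their values were seen. Alternatives were pseudocounts of 0.1 and 5, no filter, a minimum of 5 FPKM, 3 scalings, limma without the trend, the replicate number as a block, and libraries left out.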

Additional observations from a re-analysis of the deposited data

How the results depend on the processing

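Of the 29 members called, 20 kept their call under every one of the 16 alternatives that tested them (TOMM40L was under the minimum of 5 FPKM and so was tested in 15) and none changed direction. The count of members called higher ranged from 20 to 28 over the alternatives, with 20 to 25 when 1 library was left out. The count called lower was 5, and over the alternatives it was 1 with libraries rescaled to a sum of 1000000, 8 with quantile normalisation, 6 with no filter, 4 at a minimum of 5 FPKM, 7 from positive replicate 1 alone and 4 to 7 with 1 library left out. Of the other list 18 to 24 genes rose and 5 to 7 fell with 1 library left out. With the replicate number as a block 23 members rose and 5 fell (28.1% and 28.5% of all tested genes), and SPG7 alone lost its call. Same-numbered libraries did not deviate together (correlations -0.0211, -0.0301 and -0.0209 over 12213 genes), so the numbers were not used to pair them.

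Signs turned for genes that had not passed. With libraries rescaled to a sum of 1000000 the log2 fold change was 0.03 for GRPEL1, 0.16 for TIMM44, 0.07 for TOMM20, 0.02 for APOOL, 0.03 for ATF4 and 0.01 for UBQLN1. With quantile normalisation it was -0.01 for TIMM17A. For TOMM7, HSPA8 and HSP90AA1 it was then -0.20, -0.38 and -0.35, and these passed as lower by limma (adjusted p = 0.0403, 0.000794 and 0.00423). With 1 library left out it ranged from -0.02 to 0.37 for CLPB, -0.03 to 0.29 for CLPX, -0.08 to 0.18 for GRPEL2, -0.13 to 0.16 for TIMM44, -0.03 to 0.34 for TIMM8B, -0.23 to 0.36 for IMMP1L and -0.28 to 0.00 for APOOL, and the ratio TIMM17A/TIMM17B reached 0.02. From positive replicate 1 alone it was -0.08 for CLPB, 0.24 for TIMM44, 0.04 for TIMM17A/TIMM17B and -0.01 for YME1L1/OMA1. The cause was not tested. Depth limits values of TOMM20L and other genes near 0, and the depth of positive replicates 2 and 3 is unknown.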

Other observations

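Values of ZsGreen-positive replicate 1 were set against those of the other positive libraries by transcript length. Across the 42 tested members the log2 ratio of replicate 1 to the mean of replicates 2 and 3 had a Spearman's rho of -0.38 with the longest coding transcript, and across 11586 tested genes with a length one of -0.20. The same measure for replicate 3 over replicate 2 was -0.02 for the members and -0.13 for all genes. These are across genes, which are not independent replicates, and the points share the same libraries. The 6 members highest in replicate 1 on this log2 scale were TIMM8B (819 nt) at 0.66, TOMM6 (637 nt) at 0.64, TOMM5 (808 nt) and TIMM9 (1336 nt) both at 0.50, TIMM10 (680 nt) at 0.47 and TOMM40 (3415 nt) at 0.45. The short transcripts of TOMM7 (778 nt) and HSPE1 (950 nt) were at 0.20 and 0.12. At the other end TIMM8A (2960 nt) and TIMM23B (1152 nt) were both at -0.66 and CLPB (10170 nt) at -0.48. The part of transcript length in the results for these genes was not tested.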
